A study of Mus musculus with 64 samples.

Results

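Right ventricular transcripts of mice that had lost plakophilin-2 (Pkp2) from adult heart muscle were compared with those of wild-type mice. The comparison took every right ventricle (RV) library of the untreated knockout group (cKO, 4 animals) and of the wild-type group (WT, 9 animals), which made 13 of the 64 bulk RNA sequencing libraries of the study. All animals were C57BL6 mice with floxed Pkp2 alleles. In cKO animals a Cre recombinase fused to an estrogen receptor and driven by the alpha myosin heavy chain promoter, which is active in cardiomyocytes, was switched on with tamoxifen. WT animals were Pkp2 fl/fl littermates without Cre. Both groups had been injected with the buffer HBSS as the vehicle of a gene therapy that other groups received, and the sources used here do not state whether the WT animals were given tamoxifen. The cKO hearts were collected 4 weeks after tamoxifen and the labels give 51 weeks for the WT hearts, so that genotype and age cannot be told apart in any value that follows. Fibroblasts, vessels and leukocytes of the heart are outside the reach of that promoter.

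Plakophilin-2 is an armadillo protein of the desmosome, the junction through which desmosomal cadherins on the cell surface are tied to the intermediate filaments inside. Desmosomes, adherens junctions and gap junctions lie side by side in the intercalated disc, where neighbouring cardiomyocytes pull on each other and pass on the action potential. Loss-of-function variants of the human gene are a frequent cause of arrhythmogenic right ventricular cardiomyopathy, in which ventricular arrhythmia comes with loss of muscle and its replacement by scar and fat.

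Pkp2 (chr16:16031144-16090586 on GRCm39, plus strand) was low in every cKO right ventricle, and its transcripts were still counted in all of them. Counts per gene in whole tissue do not tell transcript left in cardiomyocytes from that of other cells. They also do not tell an intact transcript from one of a recombined allele. Expression is given as CPM, which are counts per 1e+06 counts used after scaling between libraries, and the values of the cKO animals always come in the order cKO_2006, cKO_2052, cKO_3213 and cKO_3217. Pkp2 stood at 43.6, 67.4, 108 and 41.5 CPM in cKO and at 132 to 196 CPM (median 161) in the 9 WT animals. The highest cKO animal, cKO_3213, stayed below the lowest WT animal, and the level was lowest in cKO_2006 and cKO_3217 (log2 fold change -1.29 ± 0.22, adjusted p = 0.000214, exact two-sided permutation test p = 0.0014, the smallest that 715 arrangements can give). Here and below a log2 fold change is cKO over WT with its standard error (SE), and the adjusted p comes from edgeR's quasi-likelihood test with Benjamini-Hochberg adjustment over the 14150 genes tested, with 0.05 as the limit for a call.

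The 2 groups differed in a large part of the transcriptome. Of the genes tested 3103 were higher in cKO (21.9%) and 2852 were lower (20.2%), which made 42.1% called, and 2805 of them changed more than 2-fold. For 3342 genes (23.6%) no cKO animal overlapped with any WT animal. The median log2 fold change over all genes tested was 0.02. These shares are the background for the counts of each gene group below. Of the genes called 52.1% were higher, against 68.2% with scaling by library size alone, which moved the median of all genes to 0.20, and against 36.9% with limma on log2(TPM + 1), where that median was -0.12. The leading principal component of the 13 libraries carried 46.2% of the variance, with cKO animals at 50.7 to 100.5 and WT animals at -37.6 to -18.6. cKO_2006 lay farthest out. It held the highest value of the group for 1617 of the genes that rose (52.1%) and the lowest for 1643 of those that fell (57.6%), and without it 2645 genes were higher and 2336 lower.

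**Figure D1:**
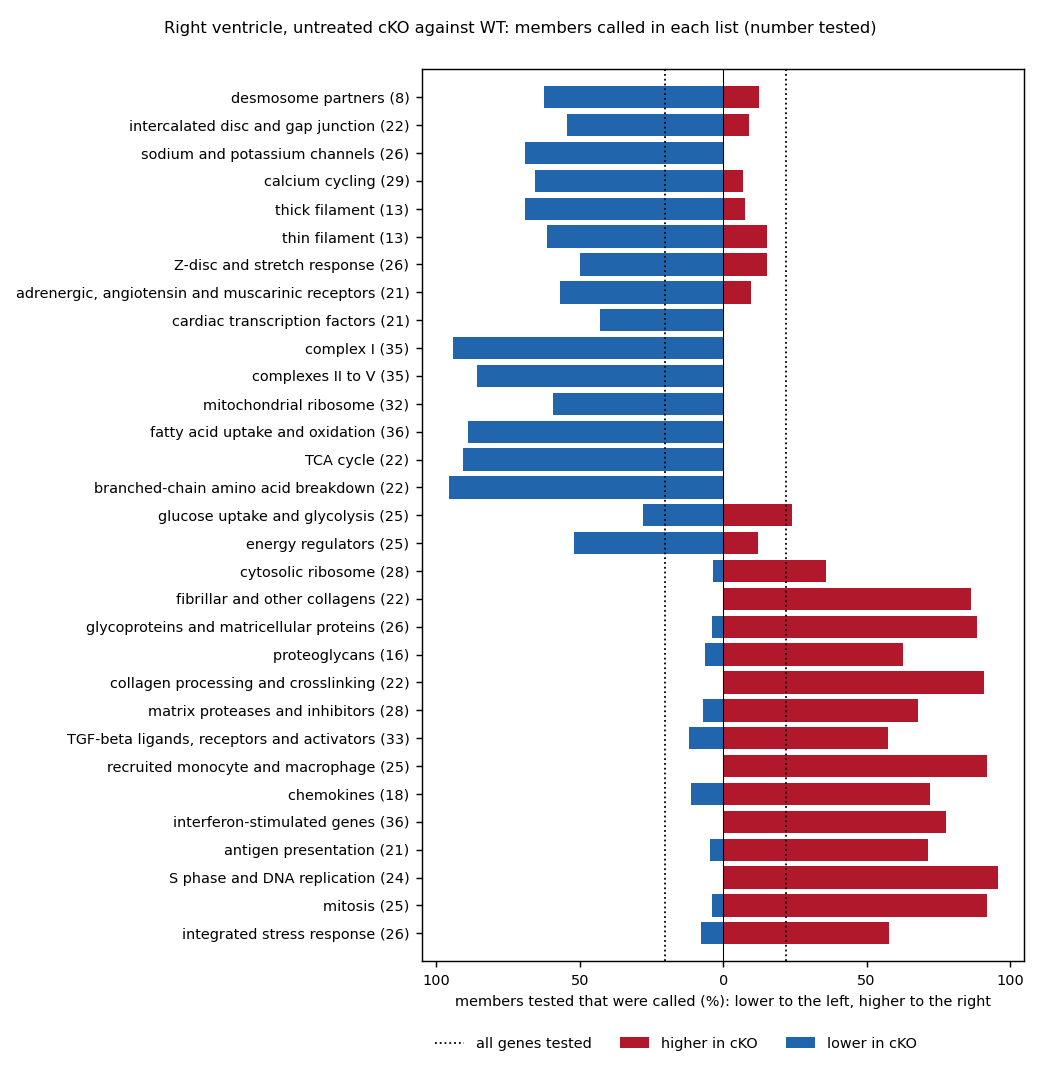
Share of the tested members of each gene list, in percent, that were called lower (blue, to the left) or higher (red, to the right) in cKO than in WT right ventricles. Dotted lines mark the share of all genes tested, 20.2% lower and 21.9% higher; lists of energy metabolism and contraction extend to the left and lists of matrix, macrophages and cell division to the right.

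Depth was alike between the groups. Total counts ran from 8.95 M to 12.4 M in cKO (M, 1e+06) and from 7.96 M to 11.1 M in WT, and 5.34 M to 9.54 M per library entered the tests. The 37 genes of the mitochondrial genome, which were left out, took 24.4 ± 1.07% of counts in cKO (SD, n = 4) and 29.4 ± 3.63% in WT (n = 9, exact two-sided permutation test p = 0.0266, and p = 0.0591 without cKO_3217). WT_5819 carried transcripts of atrial muscle, with a summed level of 1137 CPM over 10 atrial markers against 283 to 367 CPM in the other WT animals. WT_5803, whose sum was within that range, ranked next to WT_5819 in the TPM shares of 2 atrial light chains. Myl7 was 0.486% of the pair with Myl2 there and 2.40% in WT_5819, and Myl4 was 1.49% and 9.16% of the pair with Myl3. Transcripts of the Y chromosome were present in 2 of 4 cKO and in 4 of 9 WT animals, and with their presence as a covariate 3095 genes were higher and 2843 lower. Markers that define ventricular muscle were abundant in every library, and their sum over 15 genes was 42410 to 110500 CPM in cKO and 120900 to 171500 CPM in WT. In whole tissue fewer cells of a type and less RNA per cell cannot be told apart, and this holds for each group of genes below.

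Junction genes fell with Pkp2, but not all of them. Among 8 genes listed with the desmosome 5 were lower and 1 was higher (median log2 fold change -0.81), and the higher one, Tmem43, is not a desmosomal protein. Dsc2, the desmosomal cadherin that pairs with Dsg2, lay at 23.02, 59.8, 61.01 and 32.2 CPM in cKO and at 95.7 to 138 CPM (median 122) in WT (log2 fold change -1.41 ± 0.22, adjusted p = 9.17e-05). Pkp4, a relative of Pkp2 found at several kinds of junction, lay at 124, 151, 111 and 132 CPM in cKO and at 172 to 252 CPM (median 211) in WT (log2 fold change -0.71 ± 0.12, adjusted p = 0.000262). Perp, a membrane protein of desmosomes, was at 35.98, 25.7, 49.9 and 43.2 CPM against 52.5 to 98.4 CPM (median 66.2) (log2 fold change -0.91 ± 0.20, adjusted p = 0.00161). For none of these genes did a cKO animal reach the WT range, and Dsg2 (-1.86) and Dsp (-1.17) fell as well. Jup, the plakoglobin that binds both cadherins and desmoplakin, was not called (-0.12, adjusted p = 0.526), nor was Des, the intermediate filament protein of muscle (0.36, adjusted p = 0.182). Tmem43, a membrane protein of the nuclear envelope whose human gene is also linked to arrhythmogenic cardiomyopathy, went the other way, with 46.4, 32.7, 29.9 and 49.6 CPM in cKO and 16.1 to 31.04 CPM (median 20.3) in WT (log2 fold change 0.89 ± 0.17, adjusted p = 0.000537). One WT animal, at 31.04 CPM, lay above cKO_3213 there.

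At the rest of the intercalated disc 12 of 22 genes were lower and 2 higher (median -0.40). Cdh2, the N-cadherin of adherens junctions, was at 285, 306, 473 and 324 CPM in cKO and at 538 to 778 CPM (median 686) in WT (log2 fold change -0.92 ± 0.16, adjusted p = 0.000212). Ctnna3, an alpha-catenin that also binds plakophilin-2, was at 46.4, 121, 125 and 64.5 CPM against 176 to 236 CPM (median 215) (log2 fold change -1.23 ± 0.22, adjusted p = 0.000289). Gja3, a connexin of low abundance, was at 3.15, 4.11, 8.94 and 5.00 CPM against 11.4 to 20.7 CPM (median 11.9) (log2 fold change -1.36 ± 0.26, adjusted p = 0.000619). cKO_2006 was the lowest cKO animal for Cdh2, Ctnna3 and Gja3, and cKO_3213 was the highest. cKO_3213 had the highest Pkp2 of the cKO animals and also the highest sum of ventricular muscle markers (110500 CPM). Pkp2 was lowest in cKO_3217 (41.5 CPM), and what orders the animals was not tested. Ctnna1 (-0.60) and Ldb3, a protein that joins Z-discs to the disc (-0.96), fell too. The 2 genes that rose were Ilk, the kinase that links integrins to actin (0.51, adjusted p = 0.000531), and Xirp2, an actin-binding repeat protein of the disc (0.93, adjusted p = 0.00276). Xirp2 stood at 2952, 1157, 3248 and 2391 CPM, and cKO_2052 lay within the WT range of 865 to 1536 CPM (median 1315). Ilk kept its direction but not its call with limma on log2(TPM + 1).

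**Figure D2:**
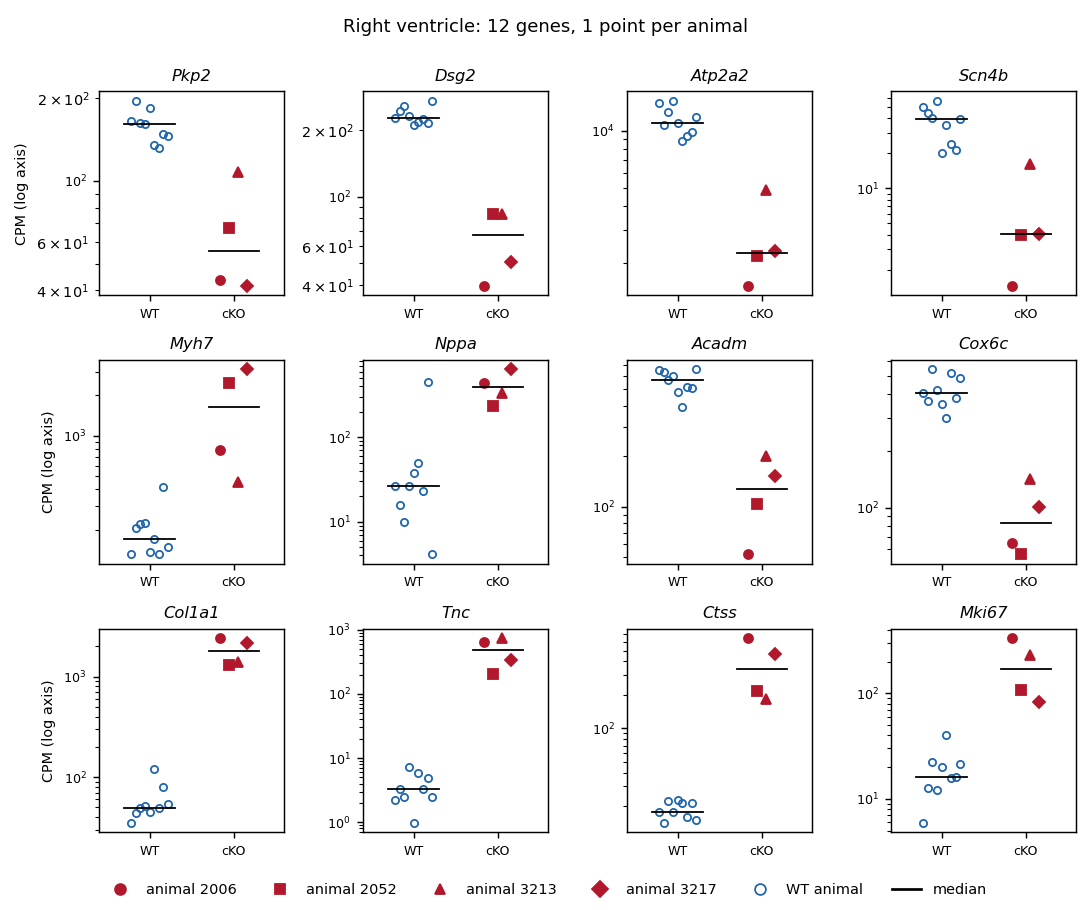
CPM (log axis) of 12 genes in the right ventricle, with 1 point per animal and a line at the median of each group of 4 cKO and 9 WT animals. Pkp2, Dsg2, Atp2a2, Scn4b, Acadm and Cox6c lie lower in cKO and Col1a1, Tnc, Ctss and Mki67 lie higher, without overlap between groups; 1 WT animal, WT_5819, reaches 455 CPM of Nppa.

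Genes that carry the action potential were lower or not called. Of 26 genes of sodium and potassium channels 18 were lower and 0 higher (median -0.98). Abcc9, the sulfonylurea receptor subunit of the cardiac ATP-sensitive potassium channel, was at 197, 289, 283 and 324 CPM in cKO and at 678 to 986 CPM (median 787) in WT (log2 fold change -1.54 ± 0.15, adjusted p = 1.62e-06). Kcnj5, which forms the acetylcholine-gated potassium channel together with Kcnj3, was at 13.4, 27.6, 37.8 and 17.96 CPM against 72.2 to 97.7 CPM (median 81.6) (log2 fold change -1.78 ± 0.21, adjusted p = 1.09e-05). Kcnv2, a silent subunit that modifies voltage-gated potassium channels, had the deepest fall of the list, from a WT range of 21.4 to 53.9 CPM (median 32.9) to 0.848, 4.97, 5.19 and 2.69 CPM in cKO (log2 fold change -3.27 ± 0.41, adjusted p = 2.19e-05). None of these ranges overlapped. Hcn4, the pacemaker channel (-1.28), Kcnk3, a background potassium channel (-1.34), and Kcnj3 (-2.65) were lower in all 4 cKO animals than in any WT animal as well.

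Calcium cycling genes showed the same direction in 19 of 29 members, with 2 higher (median -0.90). Trdn, the triadin that anchors calsequestrin to the release channel, was at 24.6, 26.8, 51.5 and 34.1 CPM in cKO and at 80.1 to 113 CPM (median 107) in WT (log2 fold change -1.58 ± 0.18, adjusted p = 5.66e-06). Cacnb2, the beta subunit of the L-type calcium channel, was at 98.01, 148, 164 and 81.2 CPM against 259.9 to 387 CPM (median 336) (log2 fold change -1.38 ± 0.19, adjusted p = 3.46e-05). Ryr2, the release channel itself, was at 1837, 2829, 3702 and 2097 CPM against 5340.0 to 6618 CPM (median 6256) (log2 fold change -1.23 ± 0.18, adjusted p = 6.76e-05). All 4 cKO animals lay below the WT range for these 3 genes, for Atp2a2 (-2.07) and for Pln (-2.36), and cKO_3213 was the highest cKO animal for each of the 5. Cacna2d1, an auxiliary subunit of the same calcium channel, also fell (-1.31), but stretches of its transcript are near-identical to transcripts of other genes and its level is uncertain. Pln was the only micropeptide regulator of the calcium pump with enough counts to be tested. Among the members that rose was Orai1, the store-operated channel of the plasma membrane (0.55, adjusted p = 0.0342). Leaving out either cKO_2006 or cKO_3217 or any 1 of 4 WT animals ended the call for Orai1 (log2 fold change 0.44 without cKO_2006).

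Receptors and enzymes of neurohormonal signalling were mostly lower, with 12 of 21 lower and 2 higher (median -0.56). Pde3a, the phosphodiesterase that breaks down cyclic AMP near the calcium pump, was at 81.9, 85.7, 89.1 and 101 CPM in cKO and at 228 to 333 CPM (median 256) in WT (log2 fold change -1.58 ± 0.13, adjusted p = 4.09e-07). The cKO animals stood close together. Agtr1a, the angiotensin II receptor, was at 5.21, 12.3, 15.1 and 11.2 CPM against 35.8 to 53.1 CPM (median 44.98) (log2 fold change -2.03 ± 0.22, adjusted p = 4.28e-06). Chrm2, the muscarinic receptor of the vagus, was at 60.6, 75.8, 120.3 and 79.6 CPM against 173 to 308 CPM (median 257) (log2 fold change -1.58 ± 0.18, adjusted p = 6.50e-06), and Adra1a, an alpha-adrenergic receptor, at 17.8, 29.5, 37.4 and 17.1 CPM against 81.02 to 175 CPM (median 102.1) (log2 fold change -2.14 ± 0.27, adjusted p = 2.29e-05). Every cKO animal was below every WT animal for all 4 genes. Ace, which makes angiotensin II, rose (1.08, adjusted p = 0.00134), as did Adrbk1, the kinase that turns off beta-adrenergic receptors (0.63, adjusted p = 0.000829). For Ace the lowest cKO animal, cKO_3213, lay within the WT range, and for Adrbk1 the ranges were apart.

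Sarcomere genes of the adult ventricle fell and a few forms of other muscle types rose. In the thick filament 9 of 13 genes were lower (median -1.04), in the thin filament 8 of 13 (median -0.95) and in the Z-disc 13 of 26 (median -0.57). Myl2, the ventricular regulatory light chain, was at 533, 1331, 2162 and 1437 CPM in cKO and at 3181 to 4920.0 CPM (median 3939) in WT (log2 fold change -1.52 ± 0.27, adjusted p = 0.000365). Mylk3, the kinase that phosphorylates that light chain in heart muscle, was at 71.96, 181, 187 and 170.2 CPM against 343 to 497 CPM (median 434) (log2 fold change -1.46 ± 0.21, adjusted p = 5.48e-05). Mylk4, a relative of Mylk3, was at 10.8, 31.01, 10.96 and 24.1 CPM against 115 to 226 CPM (median 195) and was among the 12 deepest falls (log2 fold change -3.17 ± 0.32, adjusted p = 3.46e-06). The light chain and both kinases thus fell without overlap of the groups. Tnni3, the cardiac troponin I, was at 364, 692, 1375 and 639 CPM against 2199 to 3278 CPM (median 2795) (log2 fold change -1.86 ± 0.27, adjusted p = 5.18e-05). Nebl, a nebulin-like ruler protein (-1.27), Tcap, the titin cap (-1.83), Myoz2 (-1.27) and Fhl2, a LIM protein that binds titin (-1.42), fell in the same way.

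Against this direction, Tpm3, a tropomyosin of slow and non-muscle cells, rose from a WT range of 109 to 149 CPM (median 124) to 449, 267, 280.4 and 299 CPM in cKO (log2 fold change 1.32 ± 0.13, adjusted p = 1.99e-06). Ankrd1, the ankyrin repeat protein that is induced by stretch, rose from a WT range of 57.8 to 183 CPM (median 107) to 192, 211, 317 and 255 CPM in cKO (log2 fold change 1.27 ± 0.25, adjusted p = 0.000963). Both were higher in every cKO animal. Myh7, the slow myosin heavy chain, stood at 781, 2483, 455 and 3117 CPM in cKO and at 132 to 417 CPM (median 172) in WT (log2 fold change 3.10 ± 0.43, adjusted p = 8.65e-05), but it shares 837 bases at 98.3% identity with Myh6, which was more abundant, so its counts are uncertain. Acta1, the skeletal actin, rose through cKO_3213 and cKO_3217 (19.6, 18.1, 250.1 and 111 CPM, against 3.39 to 42.7 CPM (median 8.86) in WT), and its call was lost without cKO_3213 (log2 fold change 2.46 with it and 1.46 without it). Flnc (0.67) and Hspb1 (1.09) rose as well, with cKO animals inside the WT range, and Flnc lost its call without cKO_3213 (0.34).

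In pairs of genes that encode forms of the same protein, the general form often gained on the muscle form. In 13 of 22 pairs the share of the first gene was higher in every cKO animal than in any WT animal. This was measured as the share of 1 form in the sum of both, on the TPM scale (transcripts per 1e+06), which corrects for transcript length and is given as a description without a test. Rpl3, a protein of every ribosome whose muscle form is Rpl3l, made up 94.1 ± 5.24% of the pair in cKO (SD, n = 4) and 65.9 ± 4.38% in WT (n = 9). The share of Tpm3 in the sum of Tpm3 and Tpm1 was 21.4 ± 7.94% in cKO and 4.20 ± 1.05% in WT. In glycolysis Eno1 rose from 15.5 ± 2.60% of the enolase pair Eno1 and Eno3 in WT to 46.2 ± 18.2% in cKO, and Pgam1 from 17.0 ± 1.98% to 52.7 ± 22.6% of the pair with Pgam2. In the buffering of ATP, Ckb made up 30.4 ± 19.1% of the pair with the muscle creatine kinase Ckm in cKO and 5.60 ± 1.31% in WT. For cytochrome oxidase the share of Cox8a over Cox8b was 43.9 ± 15.1% in cKO and 19.6 ± 4.21% in WT, and that of Cox6a1 over Cox6a2 was 14.4 ± 7.60% and 4.38 ± 0.540%. Fabp5, the fatty acid binding protein of fat and skin, was 21.3 ± 18.6% of the pair with the heart form Fabp3 in cKO and 2.55 ± 0.852% in WT. None of these 8 shares overlapped between the groups. In all 8 cKO_2006 was the highest cKO animal and cKO_3213 the lowest.

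**Figure D3:**
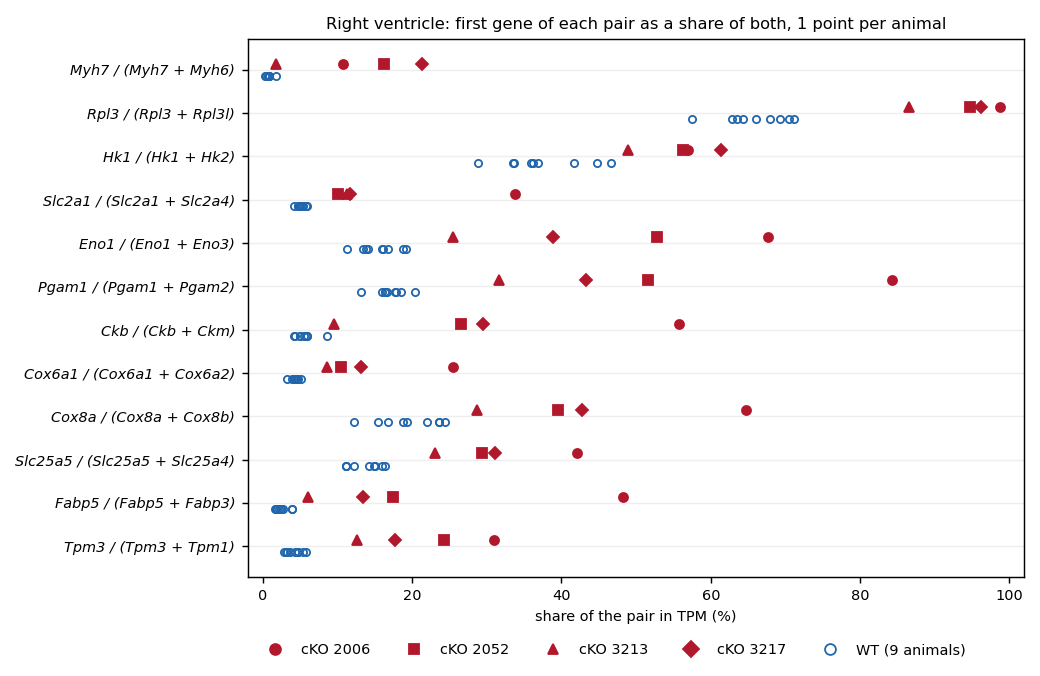
Share of the first gene in the summed TPM of a pair of related genes, in percent, with 1 point per animal for 4 cKO and 9 WT right ventricles. For Rpl3, Tpm3, Eno1, Pgam1, Ckb, Cox8a, Cox6a1 and Fabp5 every cKO animal lies above every WT animal, and for Myh7 the groups overlap.

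Regulators of cardiac identity and of mitochondrial genes were reduced in part. Of 21 cardiac transcription factors 9 were lower and 0 higher (median -0.51). Tbx5, a T-box factor of the ventricles and the conduction system, was at 5.82, 10.4, 16.9 and 9.41 CPM in cKO and at 21.6 to 58.6 CPM (median 31.6) in WT (log2 fold change -1.70 ± 0.29, adjusted p = 0.000206). Myocd, the coactivator myocardin, was at 95.5, 111, 122 and 84.6 CPM against 146 to 199 CPM (median 165) (log2 fold change -0.74 ± 0.12, adjusted p = 0.000199), and Mef2a fell by less (-0.56). Among 25 regulators of energy metabolism 13 were lower and 3 higher (median -0.47). Esrrg, the estrogen-related receptor gamma, was at 22.4, 28.5, 32.9 and 30.6 CPM in cKO and at 74.6 to 101.6 CPM (median 90.3) in WT (log2 fold change -1.66 ± 0.13, adjusted p = 3.37e-07). Ppargc1a, the coactivator PGC-1 alpha, was at 62.9, 137, 122 and 61.00 CPM against 224 to 344 CPM (median 299) (log2 fold change -1.62 ± 0.21, adjusted p = 2.13e-05). Ppara, the nuclear receptor that switches on fat oxidation, was at 12.2, 23.6, 21.9 and 13.6 CPM against 35.1 to 90.7 CPM (median 63.8) (log2 fold change -1.76 ± 0.26, adjusted p = 7.47e-05). These 3 regulators, Perm1 (-1.62) and the mitochondrial transcription factor Tfb2m (-1.10) did not overlap between the groups. Hif1a, the oxygen-regulated factor, rose in all 4 animals (0.74, adjusted p = 4.60e-05), and Pprc1, a relative of PGC-1 alpha, rose with 1 animal inside the WT range (0.89).

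Genes of energy metabolism fell in most members of each pathway. In complex I 33 of 35 nuclear-encoded genes were lower (median -1.03), in complexes II to V 30 of 35 (median -1.16), in the TCA cycle 20 of 22 (median -1.32), in fatty acid uptake and oxidation 32 of 36 (median -1.51) and in the breakdown of branched-chain amino acids 21 of 22 (median -1.31). No member of these lists was higher. Ndufa5, a subunit of complex I, was at 26.9, 30.9, 64.8 and 34.4 CPM in cKO and at 111 to 157 CPM (median 138) in WT (log2 fold change -1.81 ± 0.20, adjusted p = 4.75e-06). Ndufs6, another subunit, was at 29.6, 45.6, 97.8 and 57.4 CPM against 167 to 220.0 CPM (median 182) (log2 fold change -1.71 ± 0.23, adjusted p = 3.10e-05). Atp5c1, the central stalk of ATP synthase, was at 100.3, 114, 237 and 175 CPM against 405 to 752 CPM (median 591) (log2 fold change -1.89 ± 0.23, adjusted p = 1.29e-05). cKO_3213 was the highest cKO animal for each of these 3, though still below WT. The genes that make the mitochondrial ribosome followed in 19 of 32 cases (median -0.57), with Mrps35 at 24.7, 25.9, 38.8 and 27.5 CPM in cKO and at 56.9 to 81.7 CPM (median 71.3) in WT (log2 fold change -1.27 ± 0.14, adjusted p = 4.75e-06).

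The enzymes that feed electrons into the chain fell along with it. Etfdh, which passes electrons from fat oxidation to ubiquinone, was at 80.7, 114, 217 and 150.0 CPM in cKO and at 416 to 609 CPM (median 538) in WT (log2 fold change -1.87 ± 0.22, adjusted p = 9.92e-06). Decr1, which handles unsaturated fatty acids, was at 48.8, 54.1, 106 and 73.4 CPM against 194 to 360.2 CPM (median 231) (log2 fold change -1.85 ± 0.23, adjusted p = 1.48e-05), and Hadhb, a subunit of the trifunctional protein of beta oxidation, at 156, 246, 369 and 265 CPM against 678 to 1104 CPM (median 831) (log2 fold change -1.73 ± 0.22, adjusted p = 1.69e-05). No cKO animal came within the WT range for these genes. Dld, the dehydrogenase subunit shared by the pyruvate, oxoglutarate and branched-chain complexes, fell by 1.67 (log2 fold change -1.67 ± 0.20, adjusted p = 9.13e-06), and Sucla2, a subunit of succinyl-CoA ligase, fell by 1.90 (log2 fold change -1.90 ± 0.24, adjusted p = 1.87e-05). Among branched-chain enzymes Bckdhb, a subunit of the committing dehydrogenase, was at 12.4, 12.97, 13.1 and 13.3 CPM against 29.4 to 48.1 CPM (median 37.2) (log2 fold change -1.52 ± 0.14, adjusted p = 1.10e-06). Mut, the methylmalonyl-CoA mutase (-1.39), and Mccc2, a subunit of the leucine pathway carboxylase (-1.70), fell too. Oxct1, which lets the heart burn ketone bodies (-1.53), and Slc25a4, the muscle ADP/ATP carrier (-1.55), were lower in the list of creatine kinases and ketone use, where 9 of 14 fell and 2 rose. Gatm, which makes the precursor of creatine, was 1 of those that rose (29.9, 23.6, 19.3 and 32.3 CPM in cKO, 6.79 to 11.8 CPM (median 9.45) in WT, log2 fold change 1.51 ± 0.18, adjusted p = 7.64e-06).

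In glycolysis 6 of 25 members were higher and 7 lower (median -0.06), shares near the 21.9% and 20.2% of all genes tested. Pfkp, the platelet form of phosphofructokinase, rose from a WT range of 50.3 to 79.8 CPM (median 59.5) to 208, 117, 173 and 133 CPM in cKO (log2 fold change 1.36 ± 0.15, adjusted p = 3.82e-06). Slc16a3, which exports lactate, rose from a WT range of 0.645 to 2.53 CPM (median 1.44) to 9.21, 3.67, 10.5 and 8.07 CPM in cKO (log2 fold change 2.45 ± 0.35, adjusted p = 4.50e-05), while Slc16a1, the transporter that serves lactate uptake, fell (-1.34). Slc2a4, the insulin-responsive glucose transporter, fell from a WT range of 173 to 308 CPM (median 246) to 29.8, 82.01, 125 and 82.7 CPM in cKO (log2 fold change -1.60 ± 0.27, adjusted p = 0.000269), and Pfkfb1, which sets the level of a phosphofructokinase activator, fell from a WT range of 50.8 to 86.95 CPM (median 68.4) to 3.76, 20.5, 14.7 and 6.44 CPM in cKO (log2 fold change -2.62 ± 0.35, adjusted p = 3.74e-05). None of these groups overlapped. A response element of the estrogen-related receptors was looked for in the RefSeq promoters (GRCm38.p6, 250 bases before to 50 after each start). The letters TCAAGGTCA were in 2 of 27 promoters of complexes II to V (7.41%), in 0 of 32 of complex I and in 0 of 30 of fatty acid oxidation, against 0.407% of all 27025 promoters.

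Matrix genes rose together. Higher were 19 of 22 collagens (median 2.34), 23 of 26 glycoproteins and matricellular proteins (median 3.02), 20 of 22 genes of collagen processing and crosslinking (median 1.24) and 10 of 16 proteoglycans (median 0.86). Col1a2, the second chain of type I collagen, was at 1764, 1207, 1185 and 2124 CPM in cKO and at 83.1 to 170.4 CPM (median 109) in WT (log2 fold change 3.78 ± 0.19, adjusted p = 5.26e-09). Col5a2, which sets the width of collagen fibrils, was at 487, 324, 307 and 609.5 CPM against 30.6 to 54.3 CPM (median 37.8) (log2 fold change 3.42 ± 0.18, adjusted p = 6.65e-09). Col8a1, a short-chain collagen of vessels and healing tissue, was at 408, 289, 276 and 787 CPM against 27.5 to 48.4 CPM (median 41.4) (log2 fold change 3.47 ± 0.22, adjusted p = 6.27e-08). cKO_3217 held the highest level of all 3, and not cKO_2006, and the lowest cKO animal was far above the highest WT animal. Mfap5 (3.04) and Fbn1 (2.42), both of microfibrils, rose as well. Edil3, a glycoprotein that binds integrins, was the matricellular member that fell (1.70, 1.19, 1.88 and 1.06 CPM in cKO, 2.85 to 6.61 CPM (median 3.84) in WT, log2 fold change -1.55 ± 0.33, adjusted p = 0.00148).

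Proteins that decorate, cut and link the fibres rose as well. Bgn, the small proteoglycan biglycan, was at 3251, 2752, 1672 and 3735 CPM in cKO and at 349 to 785 CPM (median 604) in WT (log2 fold change 2.30 ± 0.21, adjusted p = 1.15e-06), and Aspn, its relative asporin, at 210.0, 229.5, 172 and 443 CPM against 32.95 to 68.97 CPM (median 55.8) (log2 fold change 2.27 ± 0.21, adjusted p = 1.29e-06). Loxl2, a lysyl oxidase that crosslinks collagen, was at 269, 168, 208 and 265 CPM against 29.6 to 47.8 CPM (median 33.02) (log2 fold change 2.65 ± 0.15, adjusted p = 1.42e-08). Adamts2, which trims the ends of procollagen, rose by 2.52, and P4ha3, a prolyl hydroxylase subunit, went from a WT range of 0 to 0.701 CPM (median 0.194) to 22.8, 19.2, 8.37 and 12.97 CPM in cKO (log2 fold change 5.70 ± 0.53, adjusted p = 1.25e-06). In every 1 of these genes the cKO animals lay apart from WT. Of 28 proteases and inhibitors 19 were higher and 2 lower (median 1.68). Mmp14, the membrane collagenase, was at 117, 57.05, 76.3 and 109 CPM against 8.86 to 23.7 CPM (median 14.2) (log2 fold change 2.53 ± 0.23, adjusted p = 1.21e-06), and Adam12, a protease of regenerating tissue, at 103, 27.4, 43.7 and 37.8 CPM against 1.64 to 8.66 CPM (median 3.72) (log2 fold change 3.61 ± 0.37, adjusted p = 4.74e-06). Timp4, the inhibitor that is typical of heart muscle, fell from a WT range of 21.8 to 88.00 CPM (median 31.5) to 7.03, 13.1, 4.33 and 9.13 CPM in cKO (log2 fold change -2.35 ± 0.43, adjusted p = 0.000586), and Mmp15 fell too (-0.98). Inhibitors therefore moved in both directions, as Timp1 rose by 5.03.

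Among 33 ligands, receptors and activators of the TGF-beta pathway 19 were higher and 4 lower (median 0.80). The ligand Tgfb1 was at 74.9, 57.4, 64.3 and 74.5 CPM in cKO and at 17.3 to 30.1 CPM (median 21.9) in WT (log2 fold change 1.53 ± 0.14, adjusted p = 1.21e-06). Its signalling receptor Tgfbr1 was at 201, 163, 109 and 197 CPM against 60.02 to 86.2 CPM (median 68.97) (log2 fold change 1.24 ± 0.14, adjusted p = 5.74e-06), and Thbs1, the thrombospondin that activates the latent ligand, at 589, 176, 302 and 370.4 CPM against 16.9 to 52.96 CPM (median 29.01) (log2 fold change 3.57 ± 0.27, adjusted p = 3.60e-07). Ligand, receptor and activator were thus higher in each cKO animal, as was the secreted glycoprotein Fstl1 (2.64). The members that fell were the coreceptor Tgfbr3 (-0.59, adjusted p = 0.00155), the integrin subunit Itgb6 (-1.09), the BMP target Id1 (-0.62) and Ltbp1, a binding protein of the latent ligand (-0.55, a call lost without cKO_2006, where it was -0.35, without cKO_2052 or without any 1 of 3 WT animals). In the Wnt and Hippo list 8 of 25 were higher and 4 lower (median 0.21). Sfrp2, a secreted Wnt modulator of fibroblasts, rose from a WT range of 1.43 to 10.7 CPM (median 5.35) to 58.8, 137, 34.8 and 294 CPM in cKO (log2 fold change 4.60 ± 0.54, adjusted p = 2.90e-05), and Frzb, its relative, rose by 2.63.

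Fibroblast markers differed by state. Of 21 markers of activated fibroblasts 17 were higher and 0 lower (median 2.28), and the sum of the 22 measured was 2531 to 5156 CPM in cKO against 322 to 503 CPM in WT. Of 17 markers of resting fibroblasts 8 were higher and 5 lower (median 0.66), with sums of 1620 to 3612 CPM and 1804 to 2603 CPM. Mfap5 (3.04) and Cd248 (1.47) were among the resting markers that rose. Runx1, a transcription factor of activated cells, was at 159, 97.2, 111 and 128 CPM in cKO and at 18.8 to 32.2 CPM (median 22.9) in WT (log2 fold change 2.38 ± 0.16, adjusted p = 5.79e-08). Scara5, a ferritin receptor of resting fibroblasts, was at 3.76, 7.56, 10.8 and 14.7 CPM against 27.6 to 53.4 CPM (median 38.98) (log2 fold change -2.09 ± 0.31, adjusted p = 6.52e-05). Gsn, the actin-severing gelsolin, fell too (log2 fold change -1.30 ± 0.35, adjusted p = 0.00758), with cKO_3217 at 817 CPM inside the WT range of 752 to 1226 CPM (median 956). The fall of Gsn was deepest in cKO_2006, at 131 CPM. The part of cell numbers in the rise of the matrix genes was not tested.

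**Figure D4:**
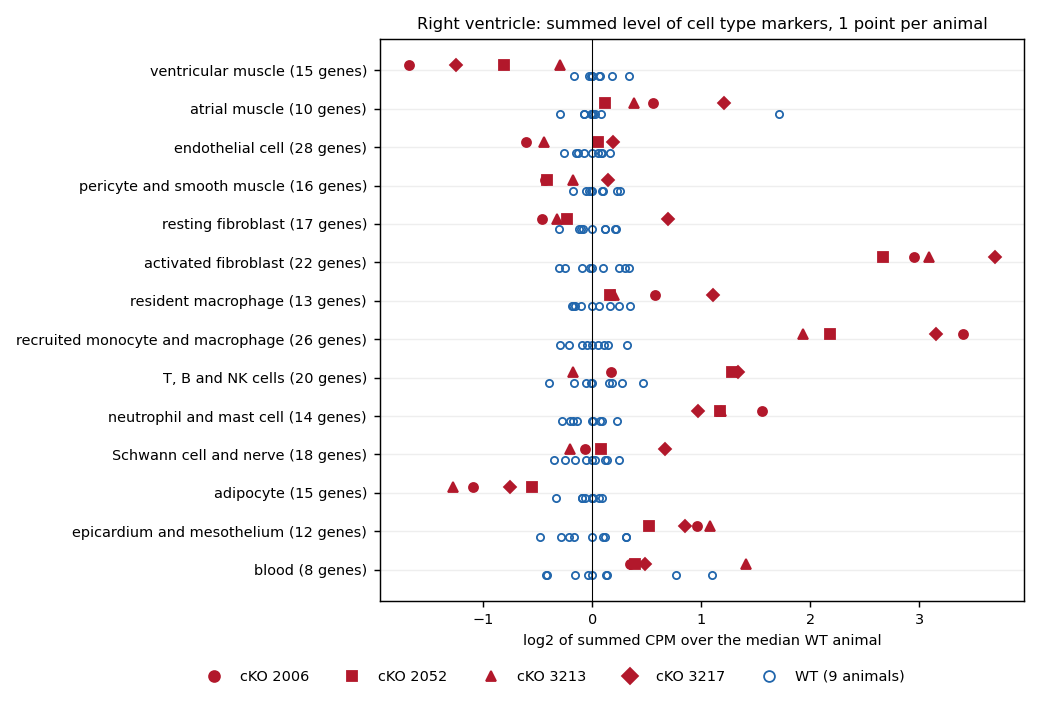
Summed CPM of the marker genes of each cell type in the right ventricle, as log2 of the ratio to the median WT animal, with 1 point per animal (4 cKO, 9 WT). Sums of the activated fibroblast list and of the list named for recruited macrophages lie above WT in every cKO animal. Ventricular muscle sums and adipocyte sums, which are mostly Fabp4, lie below, while endothelial sums overlap.

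Markers listed for recruited monocytes and macrophages rose, and those listed for resident macrophages went both ways. The first list also holds genes of macrophages in general, such as Csf1r, Adgre1, Cd68 and C1qa, so its rise does not by itself show recruitment. Of its members 23 of 25 were higher (median 2.79), Ccr2 among them (2.38). Their sum over 26 genes was 2150 to 5938 CPM in cKO against 456 to 699.5 CPM in WT. Markers of resident macrophages were higher in 2 of 11 and lower in 3, with sums of 560 to 1076 CPM and 441 to 634 CPM. The difference between these lists was not tested. Fcgr1, the high-affinity receptor for immunoglobulin G, was at 25.6, 11.8, 16.3 and 23.7 CPM in cKO and at 1.25 to 2.72 CPM (median 1.83) in WT (log2 fold change 3.32 ± 0.25, adjusted p = 1.70e-07). Trem2, a lipid receptor of macrophages in injured tissue, was at 67.2, 32.1, 19.2 and 38.1 CPM against 0.777 to 3.87 CPM (median 2.14) (log2 fold change 4.11 ± 0.32, adjusted p = 3.37e-07), and Lyz2, the lysozyme of myeloid cells, at 1582, 707, 582 and 1526 CPM against 108 to 196 CPM (median 143) (log2 fold change 2.90 ± 0.23, adjusted p = 3.60e-07). cKO_2006 was highest for all 3 and the groups lay apart. Cd163, the haemoglobin scavenger receptor of resident macrophages, went down from a WT range of 22.3 to 46.7 CPM (median 31.6) to 11.3, 6.81, 16.3 and 17.5 CPM in cKO (log2 fold change -1.33 ± 0.23, adjusted p = 0.000289), while Igf1, a growth factor that resident macrophages also make, went up (1.34).

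Signals that attract and arm leukocytes rose as well. Higher were 13 of 18 chemokines (median 1.64) and 21 of 27 genes of cytokines and the inflammasome (median 0.91), of which 16 were called without cKO_2006. Cxcl16, a membrane-bound chemokine and scavenger receptor, was at 115, 77.4, 57.3 and 151 CPM in cKO and at 19.3 to 31.4 CPM (median 24.5) in WT (log2 fold change 1.99 ± 0.19, adjusted p = 1.39e-06). Cxcl10, an interferon-induced attractant of T cells, was at 9.94, 7.35, 9.95 and 12.4 CPM against 0 to 1.70 CPM (median 0.523) (log2 fold change 4.06 ± 0.56, adjusted p = 3.52e-05). Ccl11, the eotaxin that draws eosinophils, went the other way, from a WT range of 2.60 to 15.5 CPM (median 6.45) to 0.485, 0.324, 2.31 and 0.576 CPM in cKO (log2 fold change -3.22 ± 0.60, adjusted p = 0.000537), and so did Cxcl13 (-2.25), which draws B cells. For Ccl11 every cKO animal was below WT, and for Cxcl13 the groups overlapped. Il1rn, the natural antagonist of the interleukin-1 receptor, went from a WT range of 0 to 0.722 CPM (median 0.143) to 20.8, 5.73, 21.4 and 6.63 CPM in cKO and was among the 12 largest rises (log2 fold change 5.85 ± 0.57, adjusted p = 1.62e-06). Tnfrsf1b, a receptor for tumour necrosis factor, was at 109, 63.96, 46.6 and 80.6 CPM against 15.3 to 25.1 CPM (median 20.7) (log2 fold change 1.87 ± 0.18, adjusted p = 1.21e-06).

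Complement genes rose in 7 of 17 cases and fell in 1 (median 0.23). C3ar1, the receptor for the C3a fragment, was at 399.9, 174, 148 and 294 CPM in cKO and at 18.5 to 35.5 CPM (median 24.5) in WT (log2 fold change 3.27 ± 0.23, adjusted p = 1.70e-07), and C1qa (2.31), C1qb (2.36) and C1qc (2.24), which together form the recognition molecule of the classical pathway, rose alongside. Cd59a, which blocks the membrane attack complex, fell (-0.78). The list of neutrophils and mast cells had 7 tested members, with 2 higher (28.6%, against 21.9% of all genes tested), 1 lower and 4 not called. Cxcr2 (1.21, adjusted p = 0.138) and Cma1 (-1.18, adjusted p = 0.246) were among those not called. Csf3r, the receptor for granulocyte colony-stimulating factor, was at 36.6, 24.6, 19.9 and 21.2 CPM against 1.30 to 7.59 CPM (median 3.57) (log2 fold change 2.76 ± 0.31, adjusted p = 6.58e-06). Kit, a receptor of mast cells and progenitors, rose from a WT range of 9.03 to 13.6 CPM (median 11.9) to 36.7, 28.9, 29.7 and 25.3 CPM in cKO (log2 fold change 1.33 ± 0.13, adjusted p = 2.05e-06), while Cpa3, a protease stored by mast cells, fell from a WT range of 0.773 to 6.02 CPM (median 4.04) to 0.121, 0, 0.577 and 0.768 CPM in cKO (log2 fold change -3.24 ± 0.72, adjusted p = 0.00181). Kit and Cpa3 thus moved in opposite directions. Of lymphocyte markers 7 had enough counts to be tested, and their sum over 20 genes was 16.01 to 45.6 CPM in cKO and 13.7 to 24.9 CPM in WT.

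Interferon-stimulated genes were higher in 28 of 36 cases and lower in 0 (median 0.99). Their summed level lay at 1735 CPM or more in cKO and at 675 to 1555 CPM in WT, and the cKO animals lay close together. Dhx58, a sensor of viral RNA, was at 13.9 to 18.9 CPM in cKO and at 2.14 to 6.12 CPM (median 3.01) in WT (log2 fold change 2.19 ± 0.25, adjusted p = 6.50e-06). Zbp1, a sensor of nucleic acids that can start necroptosis, was at 19.99, 15.8, 21.2 and 19.4 CPM against 1.61 to 7.74 CPM (median 4.20) (log2 fold change 2.20 ± 0.30, adjusted p = 2.95e-05). Ddx58, the sensor RIG-I, was at 120.1, 110.1, 116 and 110.1 CPM against 46.05 to 76.1 CPM (median 56.3) (log2 fold change 0.97 ± 0.13, adjusted p = 3.55e-05). All 3 sensors were higher in every cKO animal. Irf8 (1.92) and Irf5 (2.28), which are factors of myeloid cells as well, rose along with the macrophage markers, and their part in the list's count was not tested. Antigen presentation genes were higher in 15 of 21 cases (median 1.02), with H2-D1, a class I molecule, at 368, 346, 227 and 548 CPM against 124 to 208 CPM (median 171) (log2 fold change 1.17 ± 0.18, adjusted p = 7.90e-05). The class II gene H2-DMb1 rose by 2.08, highest in cKO_3217. Tapbp, which loads peptides onto class I, was the member that fell (-1.23, a call lost without cKO_2006, where it was -1.08).

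The promoters of interferon-stimulated genes were searched for the response element of interferon regulatory factors, written as GAAA, any 2 bases and GAAA again, on both strands. It was found in 15 of the 26 members with a RefSeq promoter (57.7%), against 3.49% of all 27025 promoters of that length. Of those 15 members 12 were called, and of all 36 members tested 28 were called (77.8%). Whether a match goes with a call was not tested. Oas3, an enzyme of the antiviral 2-5A system, had the smallest p of the members with a match (36.8, 20.8, 33.2 and 24.4 CPM in cKO, 0.194 to 4.02 CPM (median 1.68) in WT, log2 fold change 3.81 ± 0.39, adjusted p = 3.82e-06). Its promoter (GRCm38.p6 chr5:120777610-120777909, minus strand) is printed 5′ to 3′ with the match in capitals. Only the pattern is common to the members with a match, and the letters around it differ.
Oas3: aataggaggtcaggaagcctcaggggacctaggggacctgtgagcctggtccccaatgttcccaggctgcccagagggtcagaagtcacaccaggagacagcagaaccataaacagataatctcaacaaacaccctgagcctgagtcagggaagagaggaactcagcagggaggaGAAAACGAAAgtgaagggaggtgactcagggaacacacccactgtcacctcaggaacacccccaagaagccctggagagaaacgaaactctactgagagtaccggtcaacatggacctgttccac
A match is a description of the letters and not a measured binding site.

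Genes of the cell cycle rose in nearly every member. In S phase and DNA replication 23 of 24 were higher (median 1.52), 17 of them without cKO_2006, and in mitosis 23 of 25 (median 3.11). Mcm6, a subunit of the replicative helicase, was at 60.2, 27.7, 32.5 and 30.8 CPM in cKO and at 10.5 to 16.1 CPM (median 13.7) in WT (log2 fold change 1.501 ± 0.18, adjusted p = 1.22e-05). Rrm2, which makes deoxynucleotides, was at 24.2, 10.1, 17.2 and 9.22 CPM against 0.714 to 4.02 CPM (median 1.26) (log2 fold change 3.11 ± 0.39, adjusted p = 1.46e-05). Ccnb1, the cyclin of mitotic entry, was at 18.9, 6.16, 15.3 and 8.16 CPM against 0.420 to 1.25 CPM (median 1.01) (log2 fold change 3.65 ± 0.33, adjusted p = 9.98e-07), and Anln, the anillin of the cleavage furrow, at 55.00, 17.9, 39.5 and 20.1 CPM against 3.36 to 6.18 CPM (median 4.05) (log2 fold change 2.93 ± 0.26, adjusted p = 6.15e-07). Each was above the WT range in all 4 cKO animals, and cKO_2006 and cKO_3213 were the highest for Rrm2, Ccnb1 and Anln. Cenpf, a kinetochore protein that is also present in the cytoplasm of muscle, fell from a WT range of 169 to 273 CPM (median 197) to 78.3, 40.95, 83.1 and 23.7 CPM in cKO (log2 fold change -1.91 ± 0.28, adjusted p = 8.46e-05) and was the only member of either list called lower.

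Promoters of the mitosis list were searched for the letters TTTGAA, the core of the cell cycle homology region, and for the CCAAT box, and those of the S phase list for the E2F site TTTGGCGC, on both strands. TTTGAA was found in 16 of 21 mitosis promoters (76.2%), against 18.1% of all promoters, and CCAAT in 18 of 21 (85.7%), against 37.9%. TTTGGCGC was found in 5 of 20 S phase promoters (25.0%), against 0.537%. Shown in the same RefSeq build are the members with the smallest p that held a match, Anln (chr9:22389157-22389456, minus strand) and Mcm6 (chr1:128359656-128359955, minus strand), and Cenpf (chr1:189688037-189688336, minus strand) as the member that fell. Capitals mark TTTGAA or its reverse complement in Anln and Cenpf and TTTGGCGC in Mcm6.
Anln: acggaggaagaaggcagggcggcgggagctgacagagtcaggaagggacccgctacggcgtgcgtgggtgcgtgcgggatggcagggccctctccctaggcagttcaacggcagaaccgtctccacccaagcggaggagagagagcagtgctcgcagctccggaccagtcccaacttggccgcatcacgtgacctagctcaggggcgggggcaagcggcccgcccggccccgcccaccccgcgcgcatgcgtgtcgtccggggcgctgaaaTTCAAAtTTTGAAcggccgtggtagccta
Cenpf: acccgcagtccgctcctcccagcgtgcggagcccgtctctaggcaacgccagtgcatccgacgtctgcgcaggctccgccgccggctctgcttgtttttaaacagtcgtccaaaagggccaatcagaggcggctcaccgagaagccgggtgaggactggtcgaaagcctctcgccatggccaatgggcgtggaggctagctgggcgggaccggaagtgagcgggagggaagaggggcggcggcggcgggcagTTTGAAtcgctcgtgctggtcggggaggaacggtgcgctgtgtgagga
Mcm6: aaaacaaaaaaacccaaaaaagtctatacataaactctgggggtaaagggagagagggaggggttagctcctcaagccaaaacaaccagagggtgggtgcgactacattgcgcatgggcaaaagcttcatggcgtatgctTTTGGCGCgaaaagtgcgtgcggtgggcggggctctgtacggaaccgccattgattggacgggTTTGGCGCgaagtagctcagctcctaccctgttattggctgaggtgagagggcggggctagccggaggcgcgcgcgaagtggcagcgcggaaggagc
The letters TTTGAA were present in the promoter of Cenpf, which fell, as in that of Anln, which rose.

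Stress genes of the heart rose in part, Nppb among them. Of 16 markers of heart failure 8 were higher and 2 lower (median 1.68). Nppb, the B-type natriuretic peptide, was at 117, 73.3, 135 and 96.1 CPM in cKO and at 4.67 to 46.1 CPM (median 22.1) in WT (log2 fold change 2.08 ± 0.43, adjusted p = 0.00163). Nppa, the atrial peptide, was at 445, 237, 334 and 637 CPM against 4.10 to 455 CPM (median 26.3) and was not called (log2 fold change 2.52 ± 1.00, adjusted p = 0.0618), while without WT_5819 its log2 fold change was 4.10 (adjusted p = 5.94e-05). Corin, the protease that activates both peptides, fell from a WT range of 510.3 to 631 CPM (median 594) to 129, 280.1, 249.9 and 168 CPM in cKO (log2 fold change -1.49 ± 0.18, adjusted p = 9.56e-06). Nppb and Corin thus lay on opposite sides of WT. Lgals3, a galectin of macrophages, rose from a WT range of 1.36 to 4.06 CPM (median 3.57) to 265, 75.5, 31.4 and 63.2 CPM in cKO (log2 fold change 5.03 ± 0.43, adjusted p = 1.76e-06), and Uchl1, a deubiquitinase that is abundant in neurons, from a WT range of 3.01 to 8.195 CPM (median 4.86) to 19.6, 19.02, 22.5 and 35.2 CPM in cKO (log2 fold change 2.17 ± 0.25, adjusted p = 6.65e-06).

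The integrated stress response, which slows translation and switches on amino acid synthesis, was higher in 15 of 26 genes and lower in 2 (median 0.62). Nupr1, a stress-induced chromatin protein, was at 8.96, 9.40, 8.65 and 15.8 CPM in cKO and at 1.61 to 3.64 CPM (median 2.14) in WT (log2 fold change 2.12 ± 0.25, adjusted p = 1.01e-05). Mthfd2, a mitochondrial enzyme of one-carbon metabolism, was at 11.4, 9.29, 7.79 and 12.01 CPM against 0 to 2.75 CPM (median 1.29) (log2 fold change 2.79 ± 0.43, adjusted p = 9.31e-05), and Slc7a5, an importer of large amino acids, at 21.6, 9.40, 20.3 and 12.5 CPM against 1.78 to 6.41 CPM (median 3.97) (log2 fold change 1.87 ± 0.28, adjusted p = 8.03e-05). These 3 lay above WT in every cKO animal. Vldlr, the lipoprotein receptor that the list also holds, fell from a WT range of 437 to 640.0 CPM (median 567) to 63.97, 159, 203 and 151 CPM in cKO (log2 fold change -1.91 ± 0.24, adjusted p = 1.32e-05). The element TGATGNAAT, which ATF4 can bind, was in 3 of 24 promoters of the list (12.5%), against 0.969% of all.

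Chaperones and antioxidants were mixed. In the unfolded protein and heat shock list 9 of 24 were higher and 5 lower (median 0.46). Hspa1b, the inducible chaperone Hsp70, owed its rank to 1 animal, at 899.8, 6.05, 11.5 and 12.01 CPM in cKO and at 1.13 to 4.47 CPM (median 2.91) in WT (log2 fold change 6.36 ± 1.18, adjusted p = 0.00109). Without cKO_2006 its log2 fold change was 1.81, and its reads cannot be fully separated from those of Hspa1a, which is 99.2% identical over 2201 bases. Herpud1 (-1.02) and Dnajb9 (-0.73), both of the endoplasmic reticulum, fell without overlap. In the antioxidant and iron list 6 of 24 were higher and 9 lower (median 0.07). Ftl1, the ferritin light chain that stores iron, rose from a WT range of 106 to 222 CPM (median 146) to 1362, 802, 334 and 740.1 CPM in cKO (log2 fold change 2.35 ± 0.26, adjusted p = 6.58e-06), and Hmox1, which frees iron from haem, from a WT range of 4.27 to 12.7 CPM (median 9.35) to 241, 84.5, 31.9 and 26.2 CPM in cKO (log2 fold change 3.44 ± 0.47, adjusted p = 8.51e-05). Sod2, the superoxide dismutase of mitochondria, fell from a WT range of 453 to 699 CPM (median 549) to 101, 128, 266 and 169.6 CPM in cKO (log2 fold change -1.76 ± 0.22, adjusted p = 1.52e-05), and Cat, the peroxisomal catalase, fell too (-0.90). The iron genes rose most in cKO_2006, and Sod2 fell most there.

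Genes downstream of p53 and of cell death rose in 10 of 20 cases and fell in 2 (median 0.59). Cdkn1a, the cell cycle inhibitor p21, was at 59.00, 22.5, 33.6 and 39.00 CPM in cKO and at 2.53 to 14.7 CPM (median 11.2) in WT (log2 fold change 1.90 ± 0.32, adjusted p = 0.000252). Ripk3, the kinase of necroptosis, was at 15.3, 8.00, 13.3 and 6.82 CPM against 0.701 to 4.64 CPM (median 2.31) (log2 fold change 2.18 ± 0.34, adjusted p = 9.24e-05). Ccng1, a cyclin that p53 induces and that muscle expresses strongly, fell from a WT range of 792 to 1164 CPM (median 897) to 188, 233, 486 and 475 CPM in cKO (log2 fold change -1.48 ± 0.24, adjusted p = 0.000157). Of 28 proteins of the cytosolic ribosome 10 were higher and 1 lower (median 0.22), but with limma on log2(TPM + 1) only 1 was higher and with scaling by library size alone 15, and many share reads with pseudogenes. Rpl3 rose (log2 fold change 0.84 ± 0.12, adjusted p = 4.15e-05) and its muscle form Rpl3l was the member that fell (2.67, 12.8, 35.2 and 10.9 CPM in cKO, 49.02 to 81.01 CPM (median 65.3) in WT, log2 fold change -2.15 ± 0.45, adjusted p = 0.00193).

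Markers of vessels, nerve, fat and epicardium were mixed. Of 27 endothelial genes 6 were higher and 5 lower (median 0.10), which is near the shares of all genes tested, and the summed level over 28 markers was 3371 to 5859 CPM in cKO and 4296 to 5764 CPM in WT. Plvap, a protein of fenestrated and venous endothelium, was at 16.96, 24.6, 11.5 and 41.98 CPM against 3.03 to 11.2 CPM (median 5.63) (log2 fold change 1.85 ± 0.33, adjusted p = 0.000311), and Pdpn, a mucin of lymphatics and activated fibroblasts, at 24.96, 18.04, 23.5 and 26.4 CPM against 3.01 to 10.4 CPM (median 6.41) (log2 fold change 1.87 ± 0.24, adjusted p = 1.71e-05). Fabp4, a fatty acid binding protein of capillaries and fat cells, fell from a WT range of 595 to 828 CPM (median 737) to 305, 487, 294 and 417 CPM in cKO (log2 fold change -0.96 ± 0.15, adjusted p = 8.66e-05). Of 13 genes of Schwann cells and nerve 6 were higher and 6 lower, and without cKO_2006 these were 5 and 3, as the lower endothelial genes were then 3. Ncam1, which denervated muscle also expresses, rose (1.61), and the axonal potassium channel Kcna1 (-2.71) fell. Of 7 fat cell markers tested 1 was higher and 2 were lower (median -0.61), and the defining markers Adipoq and Plin1 were at 0 in every cKO animal and at no more than 1.70 and 1.40 CPM in WT. Their sum was 347 to 573 CPM in cKO and 669 to 896 CPM in WT, but Fabp4 made up 77.6% to 94.7% of it, and without Fabp4 the sums overlapped, at 53.5 to 87.9 CPM and 41.4 to 129.5 CPM. Cebpa, a transcription factor of fat and myeloid cells, was the member that rose (3.12). Aldh1a2, which makes retinoic acid in the epicardium, rose from a WT range of 2.42 to 9.10 CPM (median 6.30) to 58.9, 18.3, 70.8 and 39.4 CPM in cKO (log2 fold change 2.96 ± 0.33, adjusted p = 7.95e-06), and the epicardial sum over 12 markers was 80.2 to 118 CPM against 40.3 to 69.4 CPM. Without Aldh1a2 that sum was 47.5 to 61.9 CPM in cKO and 37.9 to 62.01 CPM in WT, and over the 7 members tested 3 were higher and 0 lower (median -0.16).

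Several of the 12 largest rises and falls have not been given above. Spp1, Chil3 and Adam8 are members of lists already described, and the others named here are in none of the lists. They were ranked on this same contrast, so their order is a description. Spp1, the gene of osteopontin, had the largest rise (780.0, 142, 160.2 and 98.7 CPM in cKO, 0 to 1.15 CPM (median 0.411) in WT, log2 fold change 9.15). Atp6v0d2, a proton pump subunit of osteoclasts and macrophages, went from a WT range of 0 to 1.17 CPM (median 0.155) to 41.4, 13.1, 5.19 and 18.6 CPM in cKO (6.05), and Chil3, a chitinase-like protein of monocytes, from a WT range of 0 to 1.24 CPM (median 0.137) to 29.6, 3.89, 12.1 and 3.84 CPM in cKO (5.59). These 3 are genes of myeloid cells among others. Adam8, a protease of leukocytes, was carried in part by cKO_2006 (212, 24.6, 22.4 and 24.2 CPM, with a log2 fold change of 5.43 and of 3.85 without it). Among the falls Aox3, an aldehyde oxidase, went from a WT range of 6.25 to 28.4 CPM (median 11.5) to 0.121, 1.62, 1.59 and 1.92 CPM in cKO (-3.23). Inmt, a methyltransferase (-3.63), Ces1d, a carboxylesterase that hydrolyses stored lipid (-3.12), and Abca12, a lipid transporter (-3.12), fell too. Ccm2l, a gene of endothelial cells, went from a WT range of 17.3 to 42.8 CPM (median 25.2) to 3.63, 2.81, 4.18 and 1.44 CPM in cKO (-3.17), with a log2 fold change of 0.21 in the left ventricle. The test of that difference in the fit that ignores the pairing of chambers did not pass (adjusted p = 0.125). Its result with the animal as a block is not reported here, so no verdict on the difference is drawn.

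Whether a change in the right ventricle differed from the change in the left ventricle of the same animals was tested in 1 fit over both chambers. Of 14713 genes 4 passed (0.0272%), and with the animal as a block, which is the pairing that the labels give, 359 passed (2.44%). Mdh1, the cytosolic malate dehydrogenase, had a difference of -6.78 (adjusted p = 0.00777). It lay at 1.21, 2.48, 1.15 and 13.6 CPM in cKO and at 48.5 to 134 CPM (median 65.1) in WT right ventricles, while its log2 fold change in the left ventricle was 2.79. A highly used gene that is near 0 in whole groups of hearts is doubtful as a level, and the cause was not tested. The other 3 that passed in the fit without the block were uncharacterised or predicted genes. They were Gm10108 (difference of log2 fold changes -9.21, adjusted p = 0.00777), RP23-114L12.3 (-1.38, adjusted p = 0.0272) and Gm1821 (-2.13, adjusted p = 0.0272). Gm10108, which is annotated as a pseudogene, is 99.4% identical to Cycs over 319 bases. It was at 0 CPM in every WT left ventricle, and its change in the right ventricle was not called (log2 fold change 0.63, adjusted p = 0.333). The difference for Gm10108 is therefore doubtful as well. For Pkp2 the log2 fold change was -1.51 in the left ventricle, and the difference between chambers was not called in the fit without the block (adjusted p = 0.845). The result for Pkp2 with the animal as a block is not reported here, so no verdict on that difference is drawn. The lists of energy metabolism and channels had medians further from 0 in the left ventricle, with -1.51 in the right against -2.01 in the left for fatty acids, and -0.98 against -1.77 for channels, and no test was made of these differences. The collagens had a median of 2.34 over 22 genes in the right and of 1.74 over 20 genes in the left ventricle. The channel medians were over 26 genes in the right and 25 in the left ventricle.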

How the data were processed

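Whole tissue from the right and left ventricle of each mouse was sequenced. The authors trimmed reads using fastp, ran Salmon 1.8.0 on a GRCm39 transcriptome and summed transcripts to genes with tximport. They deposited estimated counts, which were not normalised, and TPM of the same libraries. Polyadenylated RNA is given in the labels and a kit that depletes ribosomal RNA in the protocol, and which applies was not settled here. Group, chamber and animal were taken from the labels, and each library of a group came from another animal.

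The count table had 39153 rows. The 1 row without a gene name (no more than 0.00136% of counts) and the 37 mitochondrially encoded genes were not tested. Counts were rounded to whole numbers (84.9% were already whole) and tested in R 4.3.3 with edgeR 4.0.16 on the 13 right ventricle libraries (filterByExpr, TMM, robust quasi-likelihood F test, Benjamini-Hochberg adjustment, threshold 0.05), and 1 CPM stood for 5.34 to 9.54 counts before TMM factors. All 26 libraries of both groups entered the test of the difference between ventricles. The ventricles of an animal are paired by the labels, and their deviations from the group means correlated at 0.0674 to 0.633. The code was tested on simulated data. Alternatives used DESeq2 1.42.0, limma 3.58.1 on log2(TPM + 0.1) and log2(TPM + 1), an unequal-variance test, other scalings and filters, and fits without each animal.

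The comparison and the 59 gene lists (1245 symbols, 1237 found, 26 of them under another name, 1116 tested) were chosen with earlier results of these data known. The rule for named genes took Pkp2, the 5 genes measured by RT-qPCR in the study (Nppa, Nppb, Col1a1, Col3a1 and Timp1), the 12 largest rises and 12 largest falls among genes called without overlap and at 10 CPM or more in the higher group, up to 6 genes per described list by smallest p, list members called in the opposite direction or near 0 in 1 group, both genes of each described pair, and the 8 genes with the smallest p between ventricles. Jup, Des, Acadm and Hspa1a fall outside this rule and were chosen after their values were seen. By sequence, 31 of 1222 genes searched had a near-identical transcript (97% over 300 bases) that was also counted, and 29 list members were at 0 in some libraries and above 10 CPM in others. Some genes that the rule takes are not reported here.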

Additional observations from a re-analysis of the deposited data

Results flagged for a closer look

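Some single animals stood apart from their own group by Dixon's test at the 95% level, which flags about 1 in 20 groups by chance. In cKO, cKO_2006 stood apart for Spp1 (780 CPM), Hspa1b (899.8 CPM) and Adam8 (212.3 CPM), and cKO_3217 for Acsm5 (1.057 CPM, with the other 3 animals at 0) and Mdh1 (13.64 CPM). Acsm5, an enzyme that activates medium-chain fatty acids, lay at 8.11 to 20.1 CPM (median 13.9) in WT, so that cKO_3217 was still far below that range. In WT, WT_5819 stood apart for Nppa (455.1 CPM), the library that also carried other atrial transcripts. WT_5803 stood apart for Col3a1 (387 CPM) and Chil3 (1.237 CPM), WT_5813 for Atp6v0d2 (1.166 CPM), WT_2031 for Il1rn (0.7218 CPM) and WT_2040 for Aox3 (28.37 CPM). Apart from that of Nppa, each of these WT values lay outside the range of the 4 cKO animals.

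The change from WT differed between the right and the left ventricle, by the interaction test of edgeR without the animal as a block, for Gm10108 (-9.211 on the log2 scale, adjusted p = 0.00777), Mdh1 (-6.782, adjusted p = 0.00777), RP23-114L12.3 (-1.378, adjusted p = 0.0272) and Gm1821 (-2.131, adjusted p = 0.0272). In the same test with the animal as a block, which 359 genes passed, these had adjusted p = 0.0105, 0.0286, 0.0156 and 0.0105 in that order. In Mdh1 all 4 cKO right ventricles lay below all 9 WT right ventricles. Gm10108 was at 0 CPM in all 9 WT left ventricles, and its change in the right ventricle was not called, so its difference is doubtful.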

How the results depend on the processing

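None of the 382 called genes that the rule for named genes took changed its direction under any alternative. Genes higher and lower numbered 3103 and 2852, against 1147 and 1775 by an unequal-variance test of log2(TPM + 1). The study's own comparisons used a test of that kind. Genes higher numbered 1973 with limma on log2(TPM + 0.1) and 2065 on log2(TPM + 1), where the median of all genes was also lower. The cause of these shifts was not tested. Pkp2 lost its call in the unequal-variance test (log2 fold change -1.53, adjusted p = 0.0598) and in no other. Of the 382 genes, that test lost 170, limma on log2(TPM + 1) 22, scaling by library size alone 19 and an effective length offset 14, and DESeq2 lost 0 of the 379 to which it gave an adjusted p. Leaving out 1 animal lost 6 to 23, the most without cKO_2006. Leaving out nuclear copies of mitochondrial sequence, an alternative chosen after seeing the data, lost 0. The mitochondrial share differed by -5.01 percentage points, by -13.8 in TPM, and by -5.719 to -4.388 without 1 animal, with the call lost without cKO_3217 (-4.53). Genes whose change differed between ventricles numbered 4, against 359 with the animal pairing as a replicate block and 86 with DESeq2. Without 1 animal they numbered 0 to 5, with 0 without cKO_2052, 1 without cKO_3213 and 2 without cKO_2006 or any 1 of 4 WT animals. The block applies to no other result, since each animal gave 1 right ventricle. cKO_2006 held the highest value in 52.1% of the genes called higher and the lowest in 57.6% of those called lower. Depth limits genes at a few CPM.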

Other observations

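Genes that degrade muscle proteins and genes of the circadian clock were lower or not called. Of 23 genes of the proteasome and of muscle ubiquitin ligases 8 were lower and 0 higher (median log2 fold change -0.22), against 20.2% lower over all genes tested. Asb15, a substrate adaptor of striated muscle, was at 14.3, 42.8, 59.4 and 24.6 CPM in cKO and at 134 to 224 CPM (median 178) in WT (log2 fold change -2.38 ± 0.30, adjusted p = 2.29e-05). Trim63, the ligase MuRF1 that targets myosin, was at 29.8, 41.3, 80.3 and 37.7 CPM against 95.4 to 129.6 CPM (median 118) (log2 fold change -1.30 ± 0.21, adjusted p = 0.000115), and Trim55 (-0.98) and Fbxo32, the ligase atrogin-1 (-0.80), fell as well. Each of these 4 was lower in every cKO animal than in any WT animal.

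Of 19 clock genes 7 were lower and 0 higher (median -0.42). Cry2, a repressor of the clock, was at 23.02, 45.6, 37.4 and 33.1 CPM against 48.5 to 79.5 CPM (median 64.8) (log2 fold change -0.88 ± 0.16, adjusted p = 0.000475), and Nr1d2, a nuclear receptor of its second loop, at 145, 289, 221 and 269.6 CPM against 364 to 500.5 CPM (median 404) (log2 fold change -0.87 ± 0.17, adjusted p = 0.000545). The time of day at which hearts were collected is not given in the sources used here, and its part in these values was not tested. Among 16 immediate early genes 7 were higher and 1 lower, of which Atf3 lost its call without cKO_2006 (0.98) and Dusp1, the lower gene, without cKO_2052 (-0.39). Junb, a subunit of AP-1, rose from a WT range of 7.77 to 13.2 CPM (median 10.4) to 35.3, 24.6, 41.2 and 27.4 CPM in cKO (log2 fold change 1.62 ± 0.16, adjusted p = 2.01e-06), and Egr2, which the list of Schwann cells also holds, rose from a WT range of 0.714 to 2.80 CPM (median 1.55) to 23.6, 13.3, 12.7 and 24.9 CPM in cKO (log2 fold change 3.49 ± 0.30, adjusted p = 5.35e-07). Both were above the WT range in all 4 cKO animals.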
